A study of Mus musculus with 8 samples.

Results

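The 4 libraries described here came from undifferentiated P19 cells, a mouse embryonal carcinoma line, that had been kept in 10 µM MHY1485 (MHY) for 24 h (libraries MHY_21 and MHY_23) or for 48 h (libraries MHY_24 and MHY_25). They were taken by treatment and time from the labels, and they are 4 of the 8 libraries of the series and 928994 of its 1926118 reads. The other 4 libraries held P19 cells given the solvent DMSO for the same times, and serve below as the measure of what time and sequencing run did without the compound. The cells of all groups were wild type, were seeded the day before treatment, and received fresh medium with MHY or DMSO every 24 h. Each group had 2 biological replicates. The number in a library's name is a name from the deposited table and not a time, so that MHY_24 is a 48 h library. RNA was sequenced as native poly(A) RNA on nanopores, which gives for each read the transcript it came from and the length of its poly(A) tail in nucleotides (nt).

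The poly(A) tail is added to an mRNA in the nucleus, is bound by poly(A)-binding proteins in the cytoplasm, and is shortened by deadenylases, a step that usually comes before decay of the mRNA. MHY1485 is used to activate mTOR, the kinase that couples nutrients and growth factors to protein synthesis, glycolysis and lipid synthesis. Transcripts with a 5′-terminal oligopyrimidine (TOP) motif, which encode ribosomal proteins and translation factors, are the mRNAs whose translation depends most on mTOR, through 4E-BP proteins and the RNA-binding protein LARP1.

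The libraries of MHY held 224975 (MHY_21), 178369 (MHY_23), 311560 (MHY_24) and 214090 (MHY_25) reads, and the DMSO libraries held 191045 to 316546. No sequencing run held both times. The 24 h libraries were read in 3 runs and the 48 h libraries in 2 other runs, with both treatments in every run, so length of exposure and sequencing run cannot be told apart within MHY alone. Runs of the same time are repeat readings of the same 2 cultures per group and add no replicates. The median speed at which RNA passed the pore was 120.48 nt per second in every 24 h library and 115.85 in every 48 h library. Reads whose tail passed quality control made up 84.0% to 85.0% of alignments at 24 h and 81.4% to 82.3% at 48 h. These run differences were alike in both treatments, and their part in the tail lengths was not tested. MHY_24 stood apart from the other MHY libraries, with the shortest tails and the longest aligned stretch (median 850 nt, against 782 to 810). The 2 libraries of each group differed by more than counting noise alone (chi-square per degree of freedom of transcript counts 1.12 to 1.38 over the 4 groups). The pluripotency factor Pou5f1 was read at 575, 630, 510 and 638 scaled reads in MHY_21, MHY_23, MHY_24 and MHY_25. The markers Zfp42 and Klf4 had no read in the MHY libraries and Nanog had 19 reads, while Sox2 and Utf1 were detected in all 4.

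Tails were shorter after 48 h than after 24 h of MHY. The median tail over all reads was 100.13 nt in MHY_21, 101.48 nt in MHY_23, 92.37 nt in MHY_24 and 98.24 nt in MHY_25. Both 48 h libraries were below both 24 h libraries, by 5.50 nt between the means (exact permutation test, two-sided, p = 0.333, the smallest p that 2 against 2 libraries can give). The median also fell in DMSO, from 100.67 and 102.50 nt to 96.76 and 99.29 nt, a difference of -3.56 nt. The 48 h MHY libraries had an SD of 4.15 nt, and the difference was -2.57 nt without MHY_24 and -8.44 nt without MHY_25. Within single runs, the median in MHY minus that in DMSO was -1.10, -0.428 and -0.895 nt in the 24 h runs, against -2.85 and -2.58 nt in the 48 h runs.

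Short tails were more frequent after 48 h of MHY. The share of reads with tails under 30 nt (<30-nt long tails) was 2.23% in MHY_21, 2.17% in MHY_23, 4.46% in MHY_24 and 3.38% in MHY_25. These libraries did not overlap between times, and the mean went from 2.2% ± 0.0469 (SD, n = 2) to 3.92% ± 0.768 (n = 2), 1.72 percentage points higher (exact permutation test, two-sided, p = 0.333). In DMSO the share was 2.34% and 2.72% at 24 h and 2.87% and 2.57% at 48 h, a difference of 0.186 percentage points with overlapping libraries (exact permutation test, p = 0.667). Among the 6 pairings of a 24 h run with a 48 h run, the rise in MHY lay between 1.55 and 1.82 percentage points. This range measures agreement between runs only, since the runs read the same 2 cultures per group. Within single runs, MHY minus DMSO was -0.329, -0.402 and -0.244 percentage points in the 24 h runs and 1.21 and 1.19 in the 48 h runs. Counting error was small beside these differences, as the 95% Wilson interval for MHY_25 was 3.30% to 3.45% and that for MHY_21 was 2.17% to 2.30% (intervals and limits here cover counting error only). Without MHY_24 the rise was 1.18 percentage points and without MHY_25 it was 2.26.

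The class of tails from 30 to 90 nt, called ~60-nt, rose in both treatments. It took 40.1%, 39.1%, 43.8% and 40.6% of reads in MHY_21, MHY_23, MHY_24 and MHY_25, a rise of 2.66 percentage points, beside 2.55 in DMSO. The rise was 1.07 percentage points without MHY_24 and 4.25 without MHY_25. Tails over 90 nt went from 57.7% and 58.8% to 51.7% and 56.0%, a difference of -4.38 percentage points, beside -2.74 in DMSO. This difference was -2.25 percentage points without MHY_24, a smaller fall than in DMSO, and -6.51 without MHY_25. The 90th percentile moved less than the 10th. It was 175.08 and 172.85 nt in the 24 h libraries of MHY, and 170.04 and 172.65 nt in those of 48 h. The 10th percentile was 46.81 and 47.67 nt and then 40.20 and 43.52 nt.

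TOP transcripts, taken from the list of the study rewritten as mouse symbols (reads were found for 91 of 92), showed the same order of libraries. Their median tail was 93.0 nt in MHY_21, 93.5 nt in MHY_23, 83.0 nt in MHY_24 and 89.4 nt in MHY_25, a difference of -7.02 nt beside -4.12 nt in DMSO. Their <30-nt share was 2.08%, 2.00%, 4.43% and 3.40% in the same order, a rise of 1.88 percentage points beside 0.196 in DMSO. For all other transcripts (non-TOP) the <30-nt share was 2.30%, 2.25%, 4.48% and 3.37%, a rise of 1.65 percentage points beside 0.181. The rise of short tails was thus seen in TOP and non-TOP reads, and the TOP minus non-TOP difference moved by 0.231 percentage points (exact permutation test, p = 0.333). The ~60-nt share of TOP reads was 45.5%, 45.2%, 51.0% and 47.0%, a rise of 3.68 percentage points beside 3.16 in DMSO. With the share of each transcript among the reads held fixed, the <30-nt rise was 1.63 percentage points over all reads and 1.86 over TOP reads (0.213 and 0.201 in DMSO). Leaving out MHY_24 moved the change in TOP median to -3.83 nt and the rise in the ~60-nt share of TOP reads to 1.67 percentage points, and leaving out MHY_25 moved them to -10.2 nt and 5.68.

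**Figure D1:**
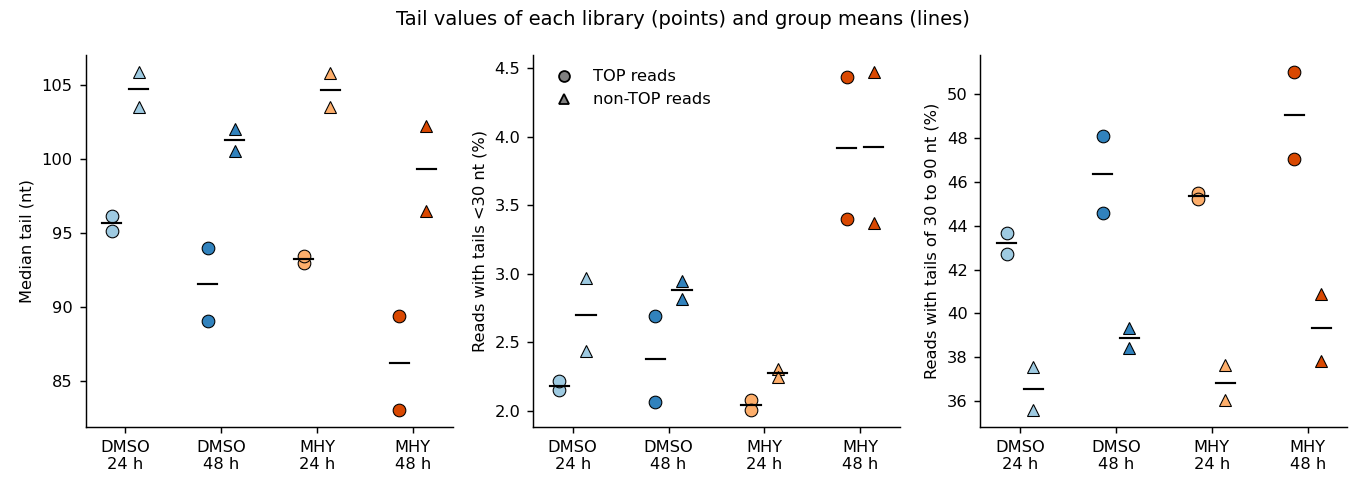
Median tail (nt), share of reads with tails under 30 nt (%) and share with tails of 30 to 90 nt (%) in each of the 8 libraries, with TOP reads as circles, non-TOP reads as triangles and short lines for the mean of 2 libraries. Both 48 h MHY libraries lie between 3.37% and 4.48% in the <30-nt panel, above all the other libraries.

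In bins of 10 nt, the TOP reads of MHY gained most between 20 and 50 nt. The bin from 20 to 30 nt went from 1.74% to 3.23% of TOP reads between 24 h and 48 h of MHY, that from 30 to 40 nt from 4.10% to 5.83%, and that from 40 to 50 nt from 6.80% to 8.13% (means of 2 libraries). In DMSO these bins rose by 0.19, 0.59 and 0.64 percentage points, and the bin from 50 to 60 nt rose by 0.86, beside 1.04 in MHY. MHY_24 was above MHY_25 in these bins, with 8.70% and 7.55% from 40 to 50 nt and 9.70% and 8.97% from 50 to 60 nt. Without MHY_24 the bins from 20 to 60 nt rose by 1.03, 1.22, 0.75 and 0.68 percentage points in MHY, so that the last of these was below the rise in DMSO. The bin from 100 to 110 nt lost 0.862 percentage points of the TOP reads of MHY.

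**Figure D2:**
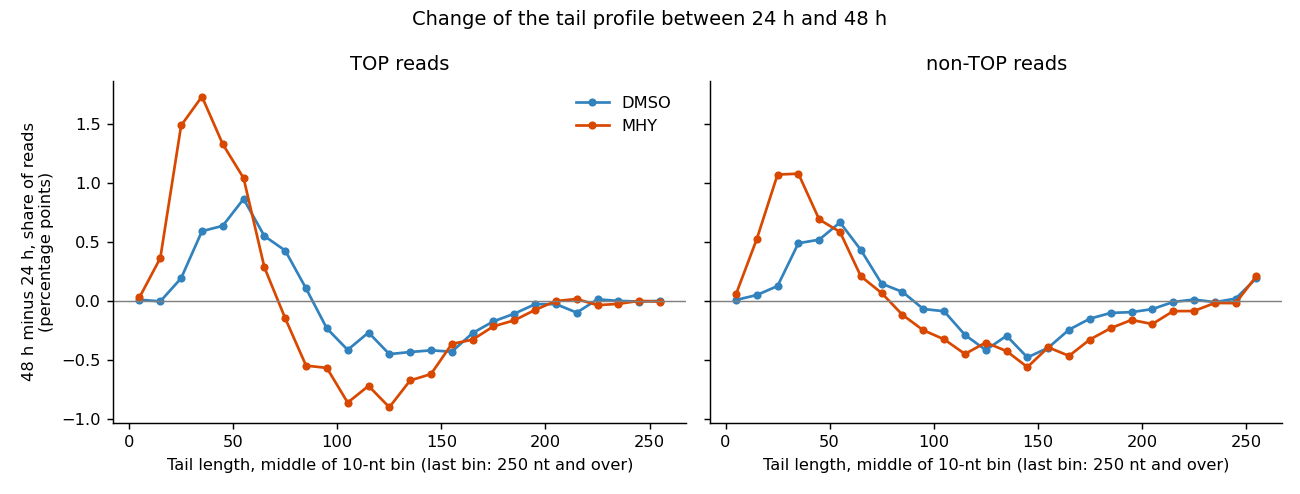
Change in the share of reads from 24 h to 48 h (percentage points, means of 2 libraries) for each 10-nt bin of tail length, for TOP reads (left) and non-TOP reads (right), with MHY in orange and DMSO in blue. In TOP reads the MHY line rises by 1.48 points in the bin from 20 to 30 nt, where DMSO rises by 0.19.

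Single transcripts were compared next, first for the <30-nt share, among the 1866 transcripts that had 10 or more reads in every one of the 8 libraries. Called here means a Benjamini-Hochberg adjusted p under 0.05 over all transcripts tested. With limma, 4 transcripts (0.214% of those tested) had a higher <30-nt share at 48 h than at 24 h of MHY and 0 had a lower one, with 209 at an unadjusted p under 0.05 (201 of them higher). Of the 4, 3 encode proteins of the small ribosomal subunit and belong to the TOP list (Rps16, Rpsa, Rps21), as did 155 of the 1866 tested. The other is Ybx1, an RNA-binding protein of stored and translated mRNPs. Tails follow the cleavage site, and the last 30 annotated bases are given here for these 4 transcripts, for the 2 with the lowest p for the share of tails from 30 to 90 nt (Rpl7 and Rps20) and for the 4 with the lowest p for mean tail (Rpl23a, Rpl7, Rps3a1 and Tpt1), 5′ to 3′ in the sense of the mRNA (GENCODE vM21, GRCm38), with the polyadenylation signal AATAAA in capitals where these letters occur.
Rps16, chr7:28353126-28353155, plus strand: gggAATAAAggcgtggaccaccacatttaa
Rpsa, chr9:120132340-120132369, plus strand: ttaaattgtgtcattacttctccaggtact
Rps21, chr2:180258416-180258445, plus strand: taaaagttttaagtacctgtgacagttaag
Ybx1, chr4:119277981-119278010, minus strand: gcacctgttAATAAAggtcttaaataataa
Rpl7, chr1:16101295-16101324, minus strand: AATAAAcagtcacagcttggcaaattgaaa
Rps20, chr4:3831334-3831363, minus strand: cAATAAAaattaaccatttaaaaatataaa
Rps3a1, chr3:86137940-86137969, minus strand: gacaAATAAAaagtcctatttgtgatcgtt
Rpl23a, chr11:78180935-78180964, minus strand: attctaaatatatacttttttcaccataaa
Tpt1, chr14:75848386-75848415, plus strand: cagttaactgctgcagtggggactctacaa
The letters AATAAA were found in the last 30 bases of 1045 of the 1845 tested transcripts with a sequence (56.6%) and of 107 of 155 TOP transcripts (69.0%). They were also found in 18 of 28 transcripts called in any tail measure (64.3%), a count that leaves out the called transcript Rps2-ps10. Rpsa, Rps21, Rpl23a and Tpt1 do not hold these letters in this window.

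Rps16 (chr7:28350652-28353155) had <30-nt tails on 2.15% of reads in MHY_21, 1.82% in MHY_23, 4.44% in MHY_24 and 5.43% in MHY_25. Both 48 h libraries were above both 24 h libraries, and above DMSO, which ranged from 2.12% to 2.61%. The log2 odds rose by 1.29 ± 0.16 (SE, limma, adjusted p = 0.022). Rpsa (chr9:120127689-120132369), the laminin receptor protein of the small subunit, had 0.491%, 0.305%, 1.31% and 1.25% in the same order, a rise of 1.61 ± 0.19 (limma, adjusted p = 0.022). Its 24 h and 48 h libraries were apart, with 3 to 5 short reads each at 24 h and 12 to 17 at 48 h.

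Rps21 (chr2:180257377-180258445) had 0.115%, 0.384%, 1.99% and 1.60%, a rise of 2.80 ± 0.36 (limma, adjusted p = 0.022) that rested on 1, 3, 21 and 14 short reads. Ybx1 (chr4:119277981-119294604) had 0.297% of 337 reads in MHY_21, 0 of 233 reads in MHY_23 (which allows a share of up to 1.29%), 2.51% of 479 reads in MHY_24 and 2.22% of 316 reads in MHY_25. Ybx1 was the non-TOP transcript among the 4, with a rise of 2.96 ± 0.37 (limma, adjusted p = 0.022). Each of the 4 calls was lost when some single MHY library was left out: 5 transcripts were called without MHY_21, 1 without MHY_23, and 0 without MHY_24 or without MHY_25.

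The shift toward <30-nt tails was not limited to the called transcripts. The median change in log2 odds was 0.50 over the 1866 transcripts, 0.92 over the 155 TOP transcripts among them and 0.44 over the others, beside 0.0037 over all in DMSO. With the bound at 20 nt the median over all transcripts was -0.02 and that over TOP genes was 1.06, and with 1 read added in place of 0.5 the median over all was 0.30. Over the 716 transcripts with 30 or more reads in every library it was 0.73. The log2 odds thus depended on read depth, which was not matched between TOP and other transcripts. Over pooled reads the share rose by 1.88 percentage points for TOP and 1.65 for non-TOP. Separation of the times, with both 48 h libraries above both 24 h libraries, was seen for 30.2% of the tested transcripts and the opposite for 3.43%. The change was above 0 in 68.6% of all and 88.4% of TOP transcripts. By each gene's most-read transcript, 89 of 91 TOP genes were above 0 with a median of 0.98, while 3 were called. The difference between the change in MHY and that in DMSO had a median of 0.49, but 0 transcripts were called for it (limma, 159 at an unadjusted p under 0.05), with adjusted p = 0.077 for Rpsa, Ybx1 and Rps16 and 0.239 for Rps21.

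For the ~60-nt share, 7 transcripts (0.375% of those tested) were higher at 48 h of MHY, 0 were lower, and 144 had an unadjusted p under 0.05. Rpl7, a protein of the large ribosomal subunit, had 37.8% and 41.2% of its reads in this class in MHY_21 and MHY_23, and 52.3% and 47.0% in MHY_24 and MHY_25. The times did not overlap, and the log2 odds rose by 0.64 ± 0.12 (limma, adjusted p = 0.009). Rps20, of the small subunit, had 44.9%, 43.1%, 56.3% and 49.1% (a rise of 0.52, limma, adjusted p = 0.015), and Rpl23a had 45.1%, 43.7%, 52.9% and 47.8%. The WD-repeat gene Wdr89 had 41.4%, 41.8%, 63.1% and 52.6%. Its reads can belong to near-identical copies, since 4.55% of them reached a mapping quality of 10, and 2 other called transcripts bear pseudogene names (Rps2-ps10 and Ftl1-ps1). In Rpl7, Rps20, Rpl23a and Wdr89, MHY_24 was the highest library. From 24 h to 48 h of DMSO the change in log2 odds was 0.26 for Rpl7, 0.25 for Rps20, 0.34 for Rpl23a (0.37 in MHY) and 0.56 for Wdr89 (0.99 in MHY), none of them called. Over all transcripts the median change was 0.15 in MHY and 0.17 in DMSO, and that in MHY was 0.059 without MHY_24 and 0.24 without MHY_21 or without MHY_25. With all libraries, 0 transcripts were called for the difference in change between MHY and DMSO (limma, 71 at an unadjusted p under 0.05). The 7 calls for the change in MHY itself, from 24 h to 48 h, depended on the libraries. Leaving out MHY_21, MHY_23 or MHY_24 left 0 called, and leaving out MHY_25 gave 31. Without MHY_24 the rise in log2 odds was 0.63 for Wdr89, 0.29 for Rps20 and 0.19 for Rpl23a.

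Mean tail length per transcript fell, with 24 transcripts called shorter and 0 longer (1.29% of those tested, 201 at an unadjusted p under 0.05). Of the 24, 16 were TOP, as were 155 of the 1866 tested. The fit was weighted by reads, and TOP reads made up 29.1% to 33.0% of each MHY library. Rpl7 (chr1:16101295-16104662) had a mean tail of 107.9 nt in MHY_21, 106.1 nt in MHY_23, 92.9 nt in MHY_24 and 99.6 nt in MHY_25, a difference of -11.6 ± 2.21 nt (SE, limma, adjusted p = 0.007) beside -3.81 nt in DMSO. Rpl23a had 100.4, 99.4, 87.9 and 94.4 nt, a difference of -9.38 nt (limma, adjusted p = 0.007) beside -5.14 nt. Rps3a1, of the small subunit, had 100.5, 102.5, 88.5 and 94.3 nt, a difference of -10.7 nt (limma, adjusted p = 0.025) beside -0.72 nt. All 3 had their shortest tails in MHY_24 and no overlap between times.

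Tpt1, the translationally controlled tumor protein, had 96.5, 98.9, 81.3 and 91.5 nt, a difference of -12.3 nt (limma, adjusted p = 0.025). Among the 8 transcripts with the lowest adjusted p were also the ribosomal protein transcripts Rpl27a, Rps10 and Rpl13, with differences between -8.88 and -7.56 nt. Pou5f1 was the called member of the pluripotency list, with 121.2, 120.5, 109.0 and 114.5 nt, a difference of -9.40 nt (limma, adjusted p = 0.038) beside -5.70 nt in DMSO. Its tails thus shortened while its read count was not called. These calls depended on the libraries, as 0 transcripts were called without MHY_21 or without MHY_24, 3 without MHY_23 and 61 without MHY_25. Without MHY_24 the difference was -7.56 nt for Rpl7, -5.56 nt for Rpl23a and -6.18 nt for Tpt1.

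The median change in mean tail in MHY was -4.996 nt over all tested transcripts, -5.59 nt over the TOP transcripts and -4.86 nt over the others. In DMSO these medians were -2.43, -2.58 and -2.42 nt. Without MHY_24 the median was -2.69 nt over all tested transcripts and -2.89 nt over TOP genes, and the median difference between the change in MHY and that in DMSO went from -2.67 to -0.40 nt. Both 48 h MHY libraries were shorter than both 24 h libraries for 32.6% of transcripts and longer for 6.27%. By gene, 88 of 91 TOP genes were below 0 in MHY and 75 in DMSO, and 76 of 91 fell by more in MHY than in DMSO, though 0 transcripts were called for that difference (limma, 95 of 1866 at an unadjusted p under 0.05). Glycolytic transcripts had a median change of -1.18 nt (14 tested, 0 called), beside -4.84 nt in DMSO, and without MHY_24 their median turned to 4.60 nt. Transcripts of the proteins that bind, add or remove tails had a median of 7.27 nt (6 tested, 0 called).

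**Figure D3:**
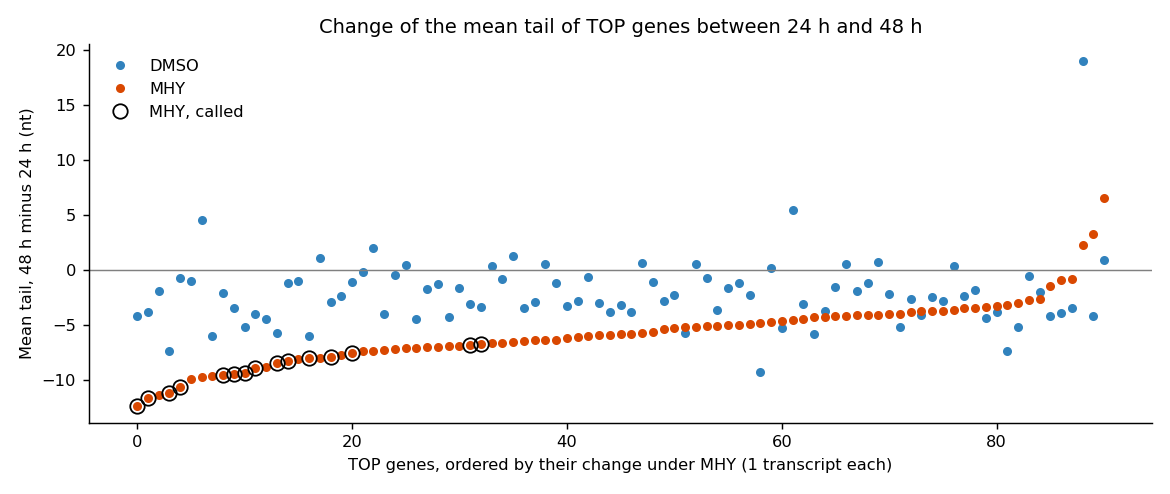
Change in mean tail (nt, 48 h minus 24 h) of the 91 TOP genes, each by its most-read transcript, ordered by the change in MHY (orange) with the change in DMSO (blue) at the same position and a ring on the 15 called in MHY. In MHY 88 of 91 genes lie below 0, and in DMSO 75.

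Read counts per transcript were compared with limma voom, among the 4104 transcripts that reached 10 reads in 2 or more libraries. Values below are scaled reads, that is reads divided by a library's size factor, and folds are log2. In bulk RNA, fewer cells of a kind and less RNA per cell cannot be told apart. Between 24 h and 48 h of MHY, 38 transcripts of 33 genes were called (0.926% of those tested), 5 higher (0.122%) and 33 lower (0.804%). Both 48 h libraries lay beyond both 24 h libraries in 37 of them, against 19.8% (higher) and 19.5% (lower) of all transcripts tested. The calls came from these same libraries, and most named transcripts were picked for this separation, so it adds no support to them. In DMSO 0 were called (184 at an unadjusted p under 0.05, against 458 in MHY). With libraries scaled to total reads in place of size factors, the median of all transcripts moved from -0.0085 to 0.10 and the calls were 15 higher and 23 lower. Without MHY_21, MHY_23, MHY_24 or MHY_25 the counts of called transcripts were 20, 8, 17 and 90. Of the 38 calls, 3 held whichever MHY library was left out, those of Pgk1, Tpi1 and Fdps, and 7 were lost in 1 of the 4 omissions.

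**Figure D4:**
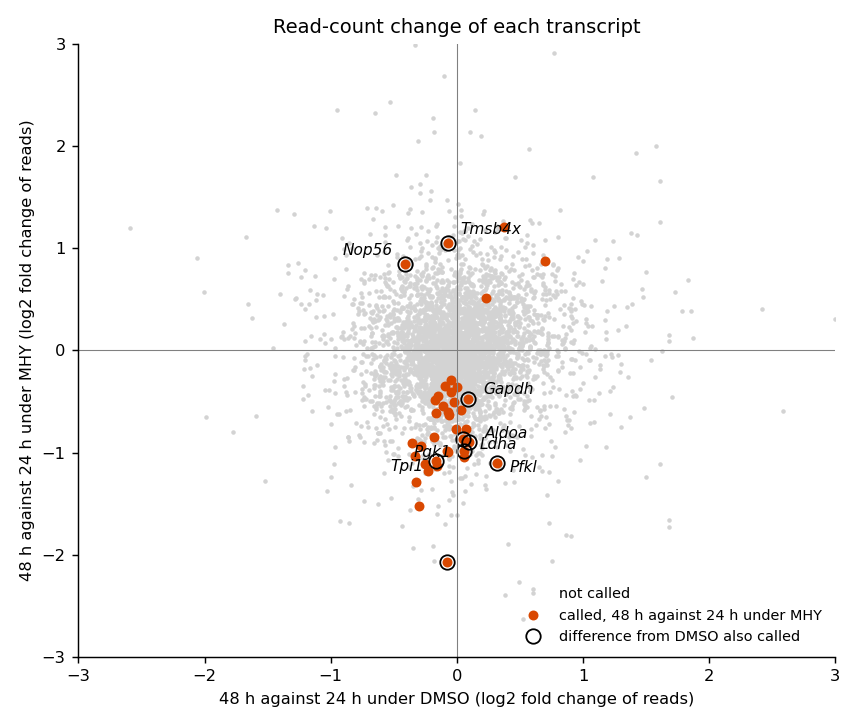
Log2 change in read count from 24 h to 48 h in DMSO (x axis) and MHY (y axis) for the 4104 transcripts tested, with those called in MHY in orange and rings on the 9 whose change differed between treatments. The ringed glycolytic transcripts lie below 0 on the MHY axis, from -1.11 (Pfkl) to -0.48 (Gapdh).

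The list with the most called falls was glycolysis, the pathway that turns glucose into pyruvate and lactate. Its genes together took 2.86% of reads in MHY_21, 2.95% in MHY_23, 1.75% in MHY_24 and 2.28% in MHY_25. Both 48 h libraries were below both 24 h libraries, at 0.693 of the 24 h share, against 1.01 in DMSO. Of 16 members tested (of 20 in the list), 10 were called lower and 0 higher, 15 were below 0, and the median change was -0.73, beside 0.04 in DMSO and -0.0085 over all transcripts in MHY. The count of called members was 8, 4, 4 and 11 without MHY_21, MHY_23, MHY_24 and MHY_25, and 9 with total-read scaling. The median was -0.45 without MHY_24 and -1.15 without MHY_25.

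In the first steps of the pathway, Gpi1, which converts glucose 6-phosphate to fructose 6-phosphate, had 90.7, 123, 46.2 and 49.1 scaled reads in MHY_21, MHY_23, MHY_24 and MHY_25, a fall of 1.13 on the log2 scale (SE 0.20). Pfkl, the liver subunit of phosphofructokinase, had 46.4, 68.8, 21.4 and 33.1, a fall of 1.11 (limma voom, adjusted p = 0.006). Aldoa (chr7:126795234-126799254), which splits fructose bisphosphate, had 405, 381, 179 and 262, a fall of 0.89. In all 3 the lowest library was MHY_24 and the times did not overlap. Tpi1 (chr6:124810586-124814296), triosephosphate isomerase, had 375, 404, 149 and 234, a fall of 1.09 (SE 0.15) that lay between 0.73 and 1.38 when single MHY libraries were left out.

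Gapdh (chr6:125161854-125165773), the dehydrogenase of glyceraldehyde 3-phosphate, had 1805, 2061, 1336 and 1438, a fall of 0.48 (SE 0.084). Pgk1 (chrX:106187100-106203699), which makes the first ATP of the pathway, had 445, 460, 193 and 280, a fall of 0.99 (SE 0.14) that lay between 0.69 and 1.23 when single MHY libraries were left out. Pgam1, phosphoglycerate mutase, had 396, 390, 229 and 332, a fall of 0.54 (limma voom, adjusted p = 0.028). Again no 48 h library reached a 24 h library. Eno1, the enolase, had 413, 435, 231 and 338, a fall of 0.63 (limma voom, adjusted p = 0.003), and its near-copy Eno1b had 297, 386, 155 and 214. Gapdh, Eno1 and Eno1b are uncertain as single genes, since 11.9%, 12% and 9.72% of their reads reached a mapping quality of 10.

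Pkm, pyruvate kinase, had 652, 879, 404 and 659 scaled reads, a fall of 0.58 (limma voom, adjusted p = 0.003), and here MHY_25 lay above MHY_21. Ldha (chr7:46845839-46855627), which makes lactate from pyruvate, had 541, 535, 240 and 385, a fall of 0.86 (SE 0.13). The members that were not called included the lactate exporter Slc16a3 (-0.84, limma voom, adjusted p = 0.12) and Aldoc (-2.27, adjusted p = 0.19), both below 0, and Hk2, the hexokinase that starts the pathway (0.70), the member above 0. The glucose importers Slc2a1 and Slc2a3 had changes of -0.22 and -0.17. Most glycolytic falls were smaller without MHY_24, at 0.73 for Pfkl, 0.58 for Aldoa, 0.48 for Ldha, 0.32 for Eno1, 0.24 for Pgam1 and 0.18 for Pkm, and none of these 6 was then called. Pkm fell by 0.38 without MHY_23 and by 0.89 without MHY_25.

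**Figure D5:**
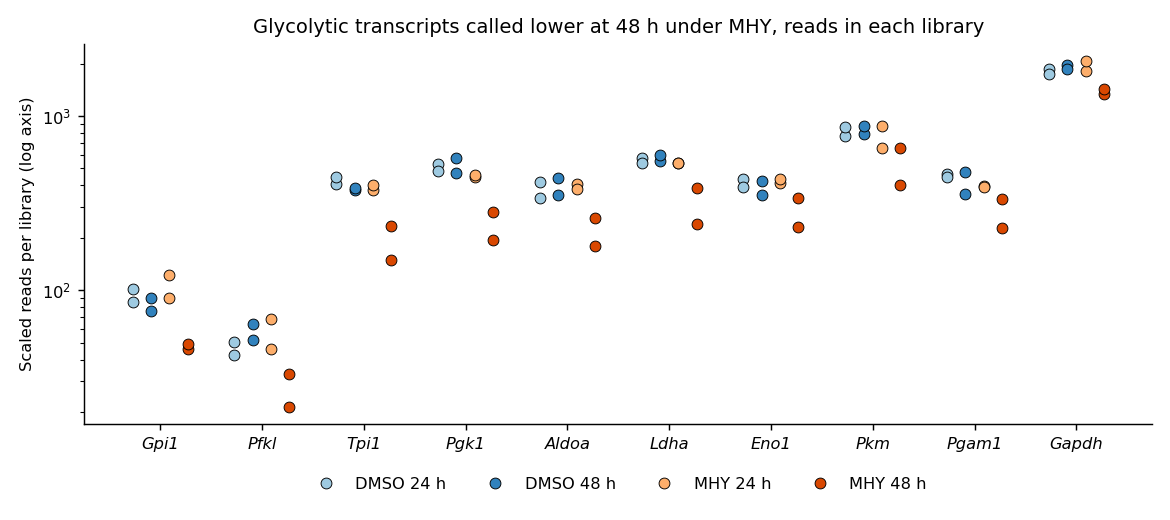
Scaled reads (log axis) of the 10 called glycolytic transcripts in each of the 8 libraries, by treatment and time. For 9 of the 10 both 48 h MHY libraries lie below both 24 h MHY libraries, and for Pkm one does not.

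Glycolytic genes share a regulator, the hypoxia-inducible factor HIF-1, which binds the letters ACGTG or GCGTG and whose activity mTOR can raise. The stretches of promoter that hold these letters in some of the transcripts that fell are shown here as the common sequence context, 30 bases each, written 5′ to 3′ in the direction of the gene (RefSeq, GRCm38.p6), with ACGTG or GCGTG on either strand in capitals (on the other strand they read CACGT and CACGC).
Ldha, chr7:46845750-46845779, plus strand: agcctaCACGTGggttcccgCACGTccgct
Pgk1, chrX:106186947-106186976, plus strand: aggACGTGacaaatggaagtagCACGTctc
Aldoa, chr7:126799364-126799393, minus strand: atgtggctcgagtCACGTcctagcggggcg
Gapdh, chr6:125165806-125165835, minus strand: ggagcccaCACGCttggtGCGTGcacattt
Pfkl, chr10:78009890-78009919, minus strand: catttgtagactgGCGTGcgctccgccttt
Bnip3, chr7:138909598-138909627, minus strand: ggcgCACGCgccgCACGTGccaCACGCtcc
Fam162a, chr16:36071614-36071643, minus strand: gCACGTcccgCACGCccgctgcgtCACGCc
In the window from 250 bases before to 50 after the start, 8 of the 10 called glycolytic genes and 13 of 15 tested ones with a promoter entry held at least one of these letters, as did 46.7% of 27025 genes. These 27025 are all genes with a promoter entry, whether or not they were read here, and the share over the tested genes was not taken. ACGTG alone was found in 6 of the 10 and in 21.8% of genes. ACGTG overlaps the E-box CACGTG, which stands in the Ldha and Bnip3 stretches above and in the window of 8.09% of genes. Gpi1 and Tpi1 held none of them in this window. These matches describe the sequence only, and binding was not measured.

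Hypoxia-response genes outside glycolysis took 0.498%, 0.510%, 0.337% and 0.405% of reads in MHY_21, MHY_23, MHY_24 and MHY_25, and 4 of the 7 tested were called lower. Ddit4, an inhibitor of mTORC1, had 38.1, 32.4, 11.7 and 12.8 scaled reads, a fall of 1.52 (SE 0.35, limma voom, adjusted p = 0.005) on 90 reads in all. Fam162a, a mitochondrial protein induced by HIF-1, had 64.9, 71.5, 31.7 and 34.2, a fall of 1.04 (SE 0.23). Bnip3, a mitophagy receptor, had 60.8, 55.3, 24.8 and 40.6, a fall of 0.93 (limma voom, adjusted p = 0.027).
In all of these the times were apart. Mif, a cytokine, had 815, 883, 533 and 686, a fall of 0.51 (limma voom, adjusted p = 0.004). All 7 tested members were below 0, with a median of -0.60 (0.02 in DMSO), but 0 of them were called without MHY_21, without MHY_23 or without MHY_24. Without MHY_24 the falls of Bnip3 and Mif were 0.51 and 0.30, and without MHY_25 the median of the list was -0.98.

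Sterol and fatty acid synthesis, which SREBP factors drive, had 1 called member of 22 tested. Fdps (chr3:89093588-89101959), farnesyl diphosphate synthase, had 110, 115, 43.5 and 58.7 scaled reads, a fall of 1.18 (SE 0.19), and was called under every omission, with falls of 0.93 to 1.37, though 47% of its reads reached a mapping quality of 10. Of the 22 members 21 were below 0, with a median of -0.50 (-0.0094 in DMSO), and 12 had both 48 h libraries below both 24 h libraries, where 19.5% of all transcripts did. The median was -0.23 without MHY_24 and -0.77 without MHY_25. The member above 0 was Srebf2 (0.52), the factor itself.

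TOP transcripts as a group took a slightly smaller share of reads, with 31.3% in MHY_21, 33.0% in MHY_23, 29.1% in MHY_24 and 30.8% in MHY_25. Both 48 h libraries were below both 24 h libraries, at 0.931 of the 24 h share against 0.990 in DMSO. Of 91 TOP genes 5 were called lower and 0 higher, 86 were below 0 and the median change was -0.19 (-0.02 in DMSO). With total-read scaling 3 were called lower and 1 higher, 71 were below 0 and the median was -0.08. The called genes were lost on omissions, with 3, 0, 0 and 25 TOP genes called lower without MHY_21, MHY_23, MHY_24 and MHY_25, and a median of -0.10 without MHY_24.

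Rplp1, of the large subunit stalk, had 2205, 2554, 1731 and 2018 scaled reads, a fall of 0.35 (limma voom, adjusted p = 0.005). Eef1a1, the factor that delivers tRNA to the ribosome, had 2651, 2767, 2143 and 2294, a fall of 0.29 (adjusted p = 0.033, limma voom), and its exchange factor Eef1b2 had 549, 601, 394 and 429, a fall of 0.48. Rps20 had 1128, 1255, 851 and 1025, a fall of 0.36, so that the transcript with more ~60-nt tails was also read less. Rps27 had 157, 228, 86.9 and 145, a fall of 0.77, and 15% of its reads reached a mapping quality of 10. Without MHY_24 the falls of Rplp1, Rps20 and Rps27 were 0.22, 0.20 and 0.36. Of the 47 large-subunit genes all 47 were below 0 (median -0.23) with 1 called, and of the 34 small-subunit genes 33 were (median -0.17) with 2 called.

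Other named falls were Nt5dc2, a 5′-nucleotidase domain protein, with 59.8, 60.7, 29.0 and 29.9 scaled reads (a fall of 1.03, limma voom, adjusted p = 0.007), the tubulin-binding protein Stmn1 with 255, 298, 159 and 211 (a fall of 0.60), and the cytosolic chaperone Hsp90ab1 with 759, 682, 513 and 552 (a fall of 0.45). Each had its times apart. Each of these 3 calls was lost without MHY_21, without MHY_23 and without MHY_24, and the fall of Stmn1 was 0.37 without MHY_24.

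The 2 largest of the 5 rises were those of Tpm1 and Tmsb4x, which are genes of the actin cytoskeleton. Tmsb4x (chrX:167207093-167209315), thymosin beta-4, which binds actin monomers, had 67.0 scaled reads in MHY_21, 108 in MHY_23, 181 in MHY_24 and 163 in MHY_25, a rise of 1.05 (SE 0.18), while the DMSO libraries held 63.4 to 72.6. Tpm1, tropomyosin, had 11.3, 21.6, 39.3 and 31.0, a rise of 1.21 (SE 0.33, limma voom, adjusted p = 0.044). S100a10, a partner of annexin A2, had 34, 43.2, 66.2 and 75.8, a rise of 0.88 (limma voom, adjusted p = 0.032), beside 0.70 in DMSO.
In these the 48 h libraries were above the 24 h libraries throughout. Nop56, a core protein of box C/D snoRNPs in the nucleolus, had 57.7, 41.8, 96.6 and 83.3, a rise of 0.85 (limma voom, adjusted p = 0.018). D10Wsu102e had 571, 535, 715 and 907, a rise of 0.52 (limma voom, adjusted p = 0.003). Without MHY_21 the rises of Tmsb4x and Tpm1 were 0.67 and 0.69. The call of Tmsb4x was lost without MHY_21, those of Tpm1 and Nop56 without MHY_21, MHY_23 or MHY_24, and those of S100a10 and D10Wsu102e without MHY_21, MHY_23 or MHY_25. In the lists they belong to, 2 of 31 cytoskeleton genes were called higher and 1 lower. Of these 31, 16 were above 0 and 15 below (median 0.04), and 8 had both 48 h libraries above both 24 h libraries, with 8 below. Of 24 nucleolar genes 1 was called higher (median 0.16), and 12 had both 48 h libraries above both 24 h libraries, against 19.8% of all transcripts.

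No member was called among 13 mTOR pathway genes (median 0.05), 13 tail-binding, -adding and -removing factors (0.04), 23 ATF4 targets and tRNA synthetases (0.09), 21 lysosome and autophagy genes (0.01), 28 cell cycle genes (-0.15), 30 proteasome genes (-0.03), 55 nuclear genes of the respiratory chain (-0.07) and 23 antioxidant and ferritin genes (-0.23). Eif4ebp1, which encodes a 4E-BP and is a translational brake under mTOR, had 156, 162, 134 and 137 scaled reads in MHY_21, MHY_23, MHY_24 and MHY_25, and Pabpc1, the main cytoplasmic poly(A)-binding protein, had 158, 143, 122 and 175. Of the chaperone list 1 of 32 (Hsp90ab1) was called. Among the markers of other cell states, 0 were called of 8 pluripotency genes tested (0.445%, 0.434%, 0.419% and 0.460% of reads), 2 neuronal, 1 neural progenitor, 2 endodermal and 2 mesodermal genes. Neuronal markers took 0.036%, 0.0454%, 0.0356% and 0.0327% of reads, while the mesodermal factor T had 4.1, 4.0, 6.9 and 42.7 scaled reads and was highest in MHY_25, as it was in DMSO_25 among the DMSO libraries (54.4, against 7.46 to 16.2).

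To set the change in MHY against that in DMSO, which was measured in the same runs, the difference between the changes was tested in the same fit. It shares the 4 MHY libraries with the values above. The difference was called for 9 transcripts (0.219% of those tested), 2 higher (0.0487%) and 7 lower (0.171%), with 289 at an unadjusted p under 0.05. Of the 7, 6 were glycolytic. Pfkl had -1.42 (SE 0.34, limma voom, adjusted p = 0.030), Pgk1 -1.05 (SE 0.18, adjusted p = 0.001, limma voom), Aldoa -0.99 (adjusted p = 0.003, limma voom), Tpi1 -0.92 (adjusted p = 0.006, limma voom), Ldha -0.91 (adjusted p = 0.003, limma voom) and Gapdh -0.56 (adjusted p = 0.005, limma voom). All 6 fell in MHY, and 0 were called in DMSO, where the glycolytic median was 0.04. The higher ones were Nop56 (1.26) and Tmsb4x (1.12, limma voom, adjusted p = 0.030). The count of called transcripts was 3, 4, 0 and 43 without MHY_21, MHY_23, MHY_24 and MHY_25, and 7, 0, 14 and 0 without DMSO_21, DMSO_23, DMSO_24 and DMSO_25. Without MHY_24 the difference was -0.53 for Ldha and -0.56 for Tpi1, and without MHY_21 it was 0.74 for Tmsb4x. The count of glycolytic transcripts among those called, 6 with all libraries, was 0 without MHY_24, DMSO_23 or DMSO_25, 3 without MHY_21 or MHY_23, 4 without DMSO_21, 7 without DMSO_24 and 11 without MHY_25.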

How the data were processed

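The authors used Guppy for base calling, minimap2 2.20 for alignment to mm10 with GENCODE vM17, Nanopolish for tail lengths and Deeplexicon for barcodes. The table they deposited has 1 alignment per line, with the tail in nt, a barcode confidence as a fraction and a mapping quality score. It is unfiltered and holds no counts per transcript. Of 2439710 alignments, 2027638 (83.1%) carried the tag PASS. Among these, 66955 mitochondrial, 21886 repeat, 12169 pseudogene and 506 spike-in alignments were set aside, and each read was counted once per transcript.

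Groups came from the labels, and libraries were assigned to them by the condition the table gives, where conditions not marked 48 were taken as 24 h, the other labelled time. Transcripts were fitted over all 8 libraries with limma 3.58.1 in R 4.3.3, by limma voom with median-of-ratios size factors for counts, and on log2 odds (0.5 read added) or means weighted by reads for tails. P-values are two-sided. Library values were compared by exact permutation. Scripts used Python 3.11.15, pandas 2.3.3 and scipy 1.17.1, and the fits were tested on simulated data. TOP and other lists are represented by each gene's most-read transcript, except where shares of reads are given. The libraries and gene lists were chosen with earlier results of these data known.

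Named transcripts are the 10 largest rises and falls called with separated libraries and at least 100 MHY reads, the 8 lowest adjusted p for each tail measure, called list members (also below 100 reads), the 3 most-read members of a list, and pluripotency, mTOR and tail-factor genes. The uncalled glycolytic members, Srebf2, T and the transcripts of doubtful mapping were named after their values were seen. Transcripts with predicted-gene names were left out, other than 2 pseudogene names given to complete a count. Some called transcripts are not reported here.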

Additional observations from a re-analysis of the deposited data

Results flagged for a closer look

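The change in read count from 24 h to 48 h differed between MHY and DMSO, by the test of that difference (limma voom, adjusted p under 0.05), for 9 transcripts. On the log2 scale, as MHY change minus DMSO change, the lower ones were Tecr (-1.99), Pfkl (-1.42), Pgk1 (-1.05), Aldoa (-0.99), Tpi1 (-0.92), Ldha (-0.91) and Gapdh (-0.56), and the higher ones were Nop56 (1.26) and Tmsb4x (1.12). Tecr, an enzyme of very-long-chain fatty acid synthesis, had under 100 reads and was named after its values were seen. Its scaled reads were 38.1 in MHY_21, 39.1 in MHY_23, 4.14 in MHY_24 and 27.8 in MHY_25, and the difference was -0.39 without MHY_24 and -3.05 without MHY_25.

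Mitochondrial transcripts, which were outside the comparisons of the report, had more tails over 90 nt at 48 h of MHY, while other transcripts had fewer. Tails over 90 nt were on 6.45% and 5.71% of mitochondrial reads in MHY_21 and MHY_23, and on 9.40% and 12.2% in MHY_24 and MHY_25, a mean of 10.8% at 48 h that lay above the DMSO libraries (5.18% and 5.29% at 24 h, 7.18% and 5.16% at 48 h). Both 48 h libraries were above both 24 h libraries for 8 of the 9 mitochondrial transcripts that reached 30 reads in every library, beside 4.75% of the 716 other tested transcripts with that many reads, and 36.9% of those lay below. The median tail of mitochondrial reads overlapped between times (61.57 and 60.87 nt, then 63.11 and 61.49 nt). Their <30-nt share was also higher at 48 h, with 1.64% and 1.48%, then 2.95% and 2.36%, a difference of 1.10 percentage points beside 0.293 in DMSO. Tails over 90 nt on mt-Atp6, a subunit of ATP synthase, made up 8.08%, 8.32%, 15.6% and 19.4% in the same order, and mt-Co1, of cytochrome c oxidase, had 9.76%, 8.73%, 14.1% and 16.7%.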

How the results depend on the processing

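For the transcripts named as the largest or most certain changes, the direction between 24 h and 48 h of MHY held under each alternative run, with 0 reversals. The calls did not hold. Naming these transcripts required both 48 h libraries to lie beyond both 24 h libraries. The alternatives used these same libraries, so the 0 reversals were largely fixed in advance and do not measure how firm the direction is. Counts of called transcripts are given per setting. With barcode confidence of at least 0.9 there were 10 for read counts, 3 for their difference from DMSO, 1 for the <30-nt share, 2 for its difference from DMSO, 1 for the ~60-nt share and 13 for mean tail. Without a filter on low counts, 198 read counts and 96 differences were called. limma-trend gave 1 difference and reads summed per gene gave 14 differences, 11 for the ~60-nt share and 0 for mean tail. Adding 1 read gave 10 for the <30-nt share, 4 for its difference from DMSO and 11 for the ~60-nt share. A mapping quality of at least 10 gave 4 for the difference in <30-nt share, 1 for the ~60-nt share and 14 for mean tail. A class bound of 20 nt gave 0 for the <30-nt share, and at least 30 reads in each library gave 11 for the ~60-nt share. Without weights there were 0 for each tail measure, and the 4 MHY libraries alone gave 0, 0 and 41 for <30-nt, ~60-nt and mean tail. The mean of log2 tails gave 40.

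Leaving out 1 library gave 8 to 90 called read counts, 0 to 43 differences in read count, 0 to 5 for the <30-nt share, 0 to 2 for its difference, 0 to 31 for the ~60-nt share and 0 to 61 for mean tail. No paired analysis was possible because the 24 h and 48 h MHY libraries share no number and the replicate numbers of the labels are not tied to libraries. For the difference between treatments a replicate block by library number gave 8 called transcripts for read counts and 0 for each tail measure. These comparisons have 2 libraries per group and few <30-nt reads per transcript, and run and time change together. The causes of lost calls were not tested.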

Other observations

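Spike-in RNAs, synthetic poly(A) standards of which some carry an encoded tail and others were tailed enzymatically, were read 506 times, mostly in MHY_23 (142) and MHY_25 (317), which carry the same barcode. The standard named 64-A had a median of 59.9 nt (37 reads) in MHY_23 and 62.1 nt (83 reads) in MHY_25, and that named 32 had 30.1 nt (18 reads) and 36.7 nt (40 reads). The standard named 128-A had 59.6 and 57.7 nt, and the longest-tailed standard had 115 and 114 nt. The standard named 16 had 35.5 nt on 6 reads and 16.9 nt on 33 reads.

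With the tested transcripts in 4 groups by their mean tail in DMSO (466 or 467 each), from shortest to longest, the median change in mean tail from 24 h to 48 h of MHY was -5.21, -4.16, -5.65 and -4.06 nt, beside -1.93, -2.17, -3.03 and -3.18 nt in DMSO. Without MHY_24 the values for MHY were -2.82, -2.59, -2.75 and -2.90 nt, which in the 2 groups with the longest tails was a smaller fall than in DMSO. In the group with the shortest tails the median of mean tails was 98.1 nt in MHY_21, 98.9 nt in MHY_23, 92.0 nt in MHY_24 and 95.9 nt in MHY_25. By group, the median change in log2 odds of <30-nt tails in MHY was 0.64, 0.55, 0.53 and 0.27, from the group with the shortest tails to that with the longest.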
